A study of Mus musculus with 6 samples.

Results

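The mitochondrial solute carrier family 25 (Slc25) was read out in gastrocnemius (Gas) muscle of mice without miR-92b. Members were taken by name alone, as every symbol of the count table made of Slc25a and a number, which gave 47 of 34714 symbols. No expression value entered that choice. Of the 47 members, 41 had enough counts to be tested among 15788 genes, and the other 6 were at 16 counts or fewer in every library.

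RNA-seq libraries were made from the Gas of 3 wild-type (WT) and 3 miR-92b knockout (M92KO) mice, 8 weeks old and untreated, with 1 mouse in each library. M92KO mice carried a global knockout of miR-92b on the C57BL/6JGpt strain, so the microRNA was deleted in every tissue and not in muscle alone, and WT controls were age-matched C57BL/6 mice. The study asked how loss of this microRNA alters glucose metabolism and exercise capacity of muscle. Its methods give the knockout mice as male and describe performance tests and an overnight fast before tissue was taken, without saying which of these the sequenced mice went through.

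Slc25 carriers are small proteins, nearly all of the inner mitochondrial membrane, that exchange metabolites between the cytosol and the matrix. Each carrier has its own cargo, such as ADP and ATP, phosphate, amino acids, dicarboxylates, carnitine esters, iron or cofactors. In muscle, the ADP/ATP and phosphate carriers bring in the substrates of ATP synthase and export the ATP that contraction uses, and the aspartate-glutamate and oxoglutarate carriers form the malate-aspartate shuttle for cytosolic NADH.

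A microRNA pairs through its seed, bases 2 to 8, with complementary letters in the 3′-UTR of a messenger RNA. Both mature strands of the deleted microRNA are shown because their seeds define which members could pair with it. They are RefSeq sequences of GRCm38.p6, with the seed in capitals, and lie on the minus strand at chr3:89227126-89227147 (3p) and chr3:89227165-89227188 (5p).
mmu-miR-92b-3p: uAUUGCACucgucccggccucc
mmu-miR-92b-5p: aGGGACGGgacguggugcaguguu

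Among the 41 members tested, 4 (9.76%) had a match of 7 or 8 letters to the 3p seed in an annotated 3′-UTR, against 14.5% of 13495 genes tested that have such a UTR. These were Slc25a15, the ornithine carrier, Slc25a32, the folate and FAD carrier, Slc25a36, a pyrimidine nucleotide carrier, and Slc25a51, the NAD carrier. None of the 4 passed the test described below. Another 4 members (9.76%, against 5.93% of genes) had such a match to the 5p seed, namely Slc25a13, Slc25a23, Slc25a26 and Slc25a35. Of these only Slc25a23 passed. A match of 7 letters was complementary to bases 2 to 8 of the microRNA, or to bases 2 to 7 with an A behind it. The match in Slc25a35 was of the latter kind, without the letter for base 8. A match of 8 letters held both. Slc25a32 carried the only match of 8 letters in the family, and the site in Slc25a23 was the only one in a member that passed. For these 2 members and Slc25a51, the matching letters are in capitals below, on the strand of the messenger RNA. The 6 letters shared by every match type lie on the minus strand of GRCm38 at chr15:39095600-39095605, chr4:45396327-45396332 and chr17:57044248-57044253, all in 3′-UTRs.
Slc25a32, 3p site: actgaccatGTGCAATAgcaaggaac
Slc25a51, 3p site: tgtgaccctGTGCAATgaagcagaat
Slc25a23, 5p site: ctttgttccCCGTCCCcctctctctg

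Slc25a32 was measured at 19.2, 15.9 and 17.7 CPM in WT (CPM, read counts scaled to equal library size after TMM normalization) and at 13.8, 19.0 and 17.4 CPM in M92KO muscle, and the groups overlapped. Its log2 fold change, M92KO minus WT, was −0.07 (SE 0.13). Slc25a51 was at 90.04, 83.5 and 84.2 CPM in WT and at 80.5, 83.6 and 86.2 CPM in M92KO muscle, which also overlapped. The median log2 fold change was −0.02 over the 4 members with a 3p match and −0.01 over the members without one. Over all genes tested it was −0.02 with a 3p match and 0.00 without one. For the 5p seed these medians were 0.16 over 4 members and −0.02 over the rest, against −0.03 over the genes with a match and 0.00 over those without. A seed match is a match of letters, and pairing was not measured here.

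Libraries held 33160508 to 48209846 counts, and 3 counts, the floor for detection, stood for 0.0628 to 0.0916 CPM. The floors cover counting error only, and the intervals from edgeR given below also hold the spread between mice. Mir92b is no symbol of the table, so the targeted gene was not analysed here. All 7 fast fibre markers were detected, with a summed level of 114046 to 131204 CPM in WT and 113689 to 128796 CPM in M92KO muscle, and the 6 slow fibre markers summed to 108 to 201 and 80.4 to 166 CPM. None of these 13 markers passed an unadjusted p-value of 0.05. Leaving out M92KO replicate 1 raised the genes past that p-value from 1955 to 2984. It also brought the members called from 8 to 10, by adding Slc25a27 and Slc25a46, the latter an outer membrane protein of mitochondrial dynamics (log2 fold change, M92KO minus WT, 0.07 with all mice and 0.16 without that mouse). In bulk muscle, fewer cells of a type and less RNA per cell cannot be told apart.

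Slc25 transcripts made up 0.798 to 0.804% of all counts in WT and 0.735 to 0.762% in M92KO libraries. The summed level of the 47 members was 7763, 7959 and 8053 CPM in WT and 7521, 7437 and 7764 CPM in M92KO muscle. The groups met at their edges, since the highest M92KO and the lowest WT mouse lay next to each other. Slc25a4, the ADP/ATP carrier ANT1 of heart and muscle, gave 51.0 to 57.8% of the family's counts in a library.

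Levels of different genes were compared as CPM per kilobase of exon, because longer transcripts collect more reads. Exon length was the union of exons over all annotated isoforms, which can exceed any single transcript. For Slc25a25 it was 7862 bases against 3821 for the longest transcript, and for Slc25a12 7342 against 6351. Order, shares and per-length ratios depend on that choice, and no other length was tried. All of them are given on this union scale. On that scale Slc25a4 (chr8:46206797-46211284, minus strand) led with 1795 ± 43.6 CPM per kb in WT (mean ± SD, n = 3 mice) and held 69.7% of the family's summed level. Slc25a3, the phosphate carrier (chr10:91116574-91124059, minus), was at 224 ± 6.12 CPM per kb. Slc25a11, the oxoglutarate carrier (chr11:70644196-70647479, minus), was next at 151 ± 5.22 CPM per kb. Slc25a12, the aspartate-glutamate carrier aralar (chr2:71271063-71367749, minus), followed at 87.8 ± 1.92 CPM per kb. On this union scale, none of these 4 overlapped its neighbour in the order in WT, and they held 87.6% of the family's summed level. Slc25a25 came next at 50.8 ± 30.6 CPM per kb, and its range over mice overlapped that of Slc25a5, the ADP/ATP carrier ANT2, at 36.1 ± 1.80 CPM per kb. Slc25a20, the carnitine-acylcarnitine carrier, was the seventh at 23.8 ± 1.90 CPM per kb.

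**Figure D1:**
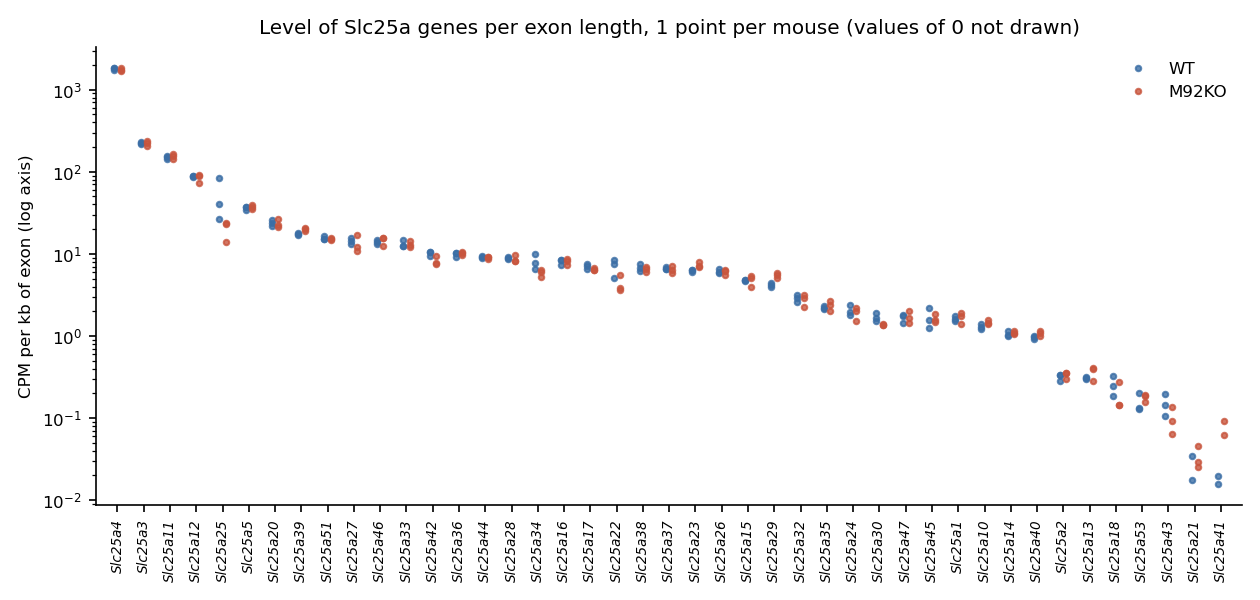
Level of Slc25a genes in CPM per kilobase of exon on a log axis, with 1 point for each mouse (blue WT, red M92KO) and genes ordered by their WT mean. The order spans from 1795 CPM per kb for Slc25a4 in WT to members near the floor, and 3 members at 0 in all WT mice and 1 member not reported here are not drawn.

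At the low end, Slc25a31, the testis ADP/ATP carrier ANT4, and Slc25a54 were at 0 counts in all 6 libraries, and Slc25a48 had 2 counts in 1 M92KO library and 0 elsewhere. Slc25a41, an ATP-Mg/phosphate carrier without the calcium-binding part, had 0 to 4 counts. Slc25a21, the oxodicarboxylate carrier, had 0 to 8 counts, and Slc25a43, whose cargo is not settled, had 4 to 16. None of the 6 was tested.

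Between genotypes, 8 of the 41 members tested (19.5%) passed an unadjusted p-value of 0.05 in the quasi-likelihood test of edgeR, against 12.4% of all genes tested. Of these, 5 members (12.2%) were lower in M92KO muscle, against 6.92% of genes, namely Slc25a25, Slc25a22, Slc25a34, Slc25a30 and Slc25a42. The 3 higher members (7.32%, against 5.47% of genes) were Slc25a29, Slc25a23 and Slc25a39. After Benjamini-Hochberg adjustment over all genes, edgeR called 0 members and 0% of genes, and the smallest adjusted p was 0.186 among members and 0.124 among all genes. DESeq2 called 2 of the 39 members to which it gave an adjusted p (5.13%, against 2.41% of 13335 genes at an adjusted p-value of 0.05), Slc25a22 (adjusted p = 0.0221) and Slc25a29 (adjusted p = 0.0433). The limma steps of the study's supplementary methods called 42 genes and 0 members after adjustment, with 7 members at the unadjusted p-value of 0.05. Those 7 included Slc25a30, Slc25a29, Slc25a23 and Slc25a39 and left out Slc25a25, Slc25a22, Slc25a34 and Slc25a42. The other 3 were Slc25a3 (−0.09), Slc25a10 (0.22) and Slc25a40 (0.19), with log2 fold changes on that scale.

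The 3 M92KO and 3 WT values did not overlap in 9 members (22.0%, against 18.3% of genes). In 5 members every M92KO mouse was higher (12.2%, against 8.77% of genes), namely Slc25a10, Slc25a23, Slc25a29, Slc25a39 and Slc25a40. In 4 members every M92KO mouse was lower (9.76%, against 9.56% of genes), namely Slc25a25, Slc25a30, Slc25a34 and Slc25a42. For a single gene, the smallest two-sided p of an exact permutation test with 3 against 3 mice is 0.1, which each of these 9 members reached.

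The bulk of the family lay close to no difference. The median log2 fold change of the 41 members was −0.01, with quartiles at −0.07 and 0.07, and 22 members (53.7%) were below 0. For all genes the quartiles were −0.14 and 0.11 around a median at 0.00, with 50.02% below 0. An absolute log2 fold change under 0.1 was found in 24 members (58.5%) and in 42.7% of genes. Within groups, the median coefficient of variation of members was 6.30% in WT and 9.11% in M92KO muscle.

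**Figure D2:**
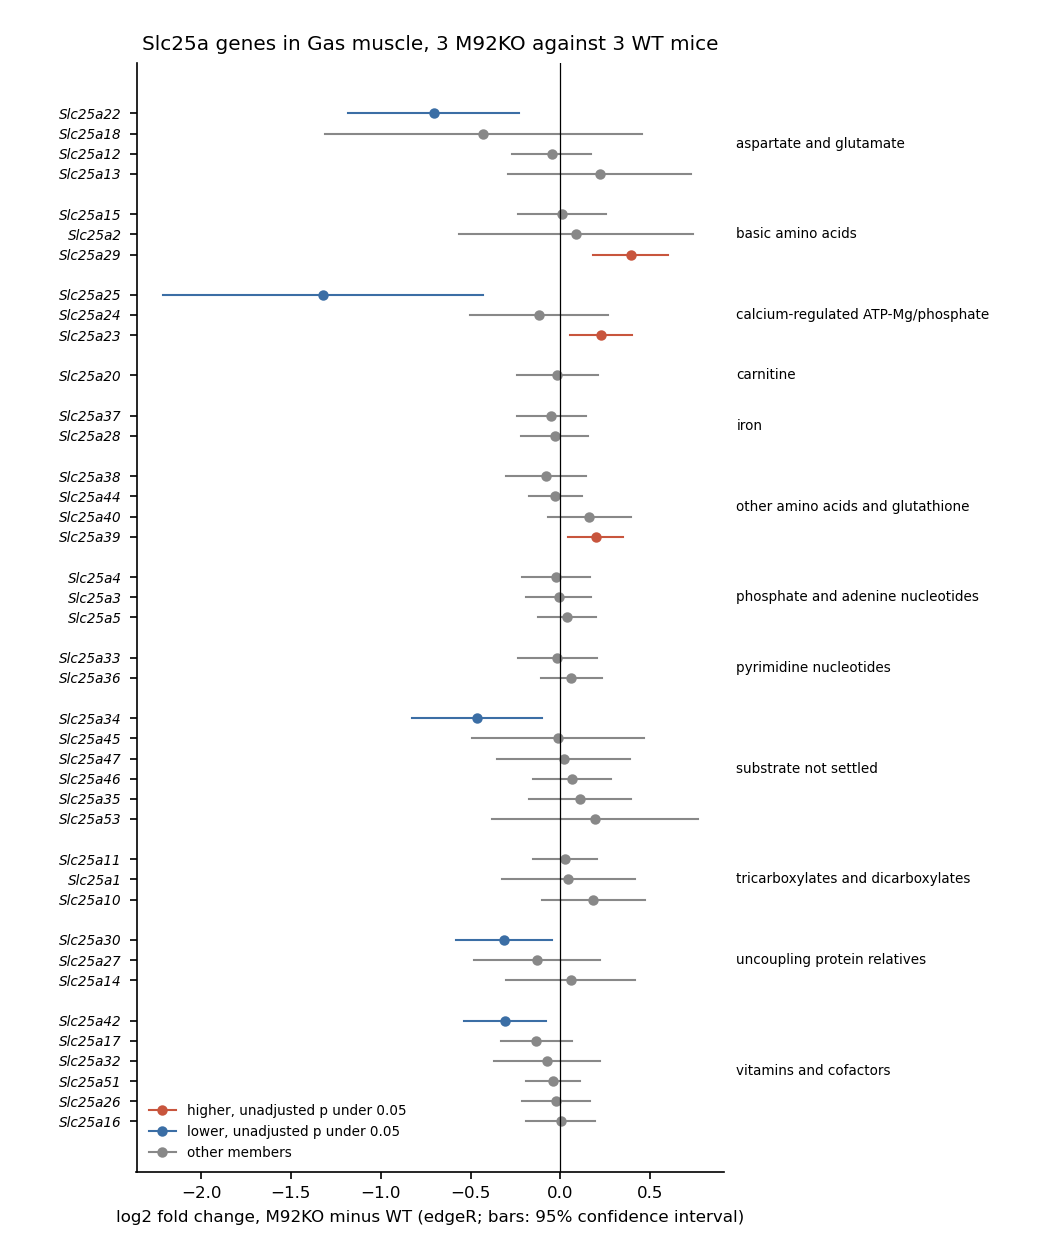
Log2 fold change (M92KO minus WT, edgeR) of the Slc25a genes tested, grouped by cargo and without 1 member not reported here, with bars for the 95% confidence interval. Blue and red mark the 5 lower and 3 higher members at an unadjusted p-value of 0.05, and Slc25a25 at −1.32 lies farthest from 0.

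None of the carriers of ATP synthesis passed the test in edgeR, though Slc25a3 passed with the supplementary steps. Slc25a4 was at 4290, 4277 and 4107 CPM in WT and at 4346, 3981 and 4143 CPM in M92KO muscle, with overlapping groups. The log2 fold change was −0.02 (95% confidence interval −0.21 to 0.16). Slc25a3 was at 1207, 1273 and 1253 CPM in WT and at 1154, 1237 and 1321 CPM in M92KO muscle, again overlapping, and its log2 fold change was −0.01 (−0.19 to 0.17). These intervals limit the size of a difference in the 2 most abundant carriers and do not show equality. Slc25a5, the ANT2 isoform of dividing and non-muscle cells, had a log2 fold change of 0.04 (SE 0.07), with an interval from −0.12 to 0.20. The per-length ratio of Slc25a4 to Slc25a5 was 49.8 ± 3.30 in WT and 47.8 ± 4.50 in M92KO muscle (exact permutation test, two-sided p = 0.5). How reads shared between such close paralogues were counted is not given in the sources used here, so the split between both ANT genes is uncertain.

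Shuttle carriers also showed no call. Slc25a11 had a log2 fold change of 0.03 (95% confidence interval −0.15 to 0.20) and Slc25a12 one of −0.05 (−0.27 to 0.17). Slc25a13, the citrin paralogue of aralar, was at 1.17, 1.14 and 1.21 CPM in WT and at 1.06, 1.496 and 1.54 CPM in M92KO muscle. In M92KO muscle, 2 mice lay above and 1 lay below all WT mice. The per-length ratio of Slc25a12 to Slc25a13 was 284 ± 15.4 in WT and 238 ± 19.3 in M92KO muscle (exact permutation p = 0.1, 0.267 after adjustment over 8 ratios of paralogues). Of the 4 shuttle enzymes (Mdh1, Mdh2, Got1 and Got2), none passed an unadjusted p-value of 0.05, with a median log2 fold change of −0.01 and summed levels of 3648 to 3987 CPM in WT and 3507 to 4198 CPM in M92KO muscle.

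Slc25a20 was at 106 to 124 CPM in WT and at 103 to 129 CPM in M92KO muscle, and its log2 fold change was −0.02 (SE 0.10). The carnitine enzymes on either side of it had a median of −0.05. Among them, 1 of 4 passed in the lower direction (against 6.92% of all genes tested) and 0 in the higher (against 5.47%). This was Cpt1a, the liver-type carnitine palmitoyltransferase, at −0.58 (adjusted p = 0.192 in edgeR and 0.0130 in DESeq2).

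The calcium-regulated ATP-Mg/phosphate carriers, which adjust the adenine nucleotide content of the matrix, held the largest difference of the family. Slc25a25 (SCaMC-2, chr2:32414487-32451445, minus strand) was counted 9593, 12387 and 31950 times in WT and 3825, 5924 and 6845 times in M92KO libraries. In CPM these were 208, 321 and 669 in WT and 110, 181 and 188 in M92KO muscle. Every M92KO mouse was below every WT mouse, and the WT mice themselves spread widely, with a coefficient of variation of 60.3%. The M92KO mean was 160 ± 43.2 CPM against 399 ± 241 CPM in WT, 0.400 times the WT level by the model, with a log2 fold change of −1.32 (SE 0.39, adjusted p = 0.256 in edgeR). WT replicate 3 set part of that size, and without it the log2 fold change was −0.73, still past an unadjusted p-value of 0.05. With the normalization and limma steps of the study's supplementary methods it was −1.22 and did not pass.

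Slc25a23 (SCaMC-3, chr17:57043711-57059863, minus) and also calcium-regulated, differed the other way. Its levels were 33.9, 32.1 and 33.2 CPM in WT and 36.2, 42.2 and 37.7 CPM in M92KO muscle, without overlap. The log2 fold change was 0.23 (SE 0.08, adjusted p = 0.302 in edgeR), and it did not pass without WT replicate 2 (0.20) or M92KO replicate 2 (0.16). Slc25a24 (SCaMC-1) overlapped between groups, at 6.23, 6.78 and 8.19 CPM in WT and 5.18, 7.48 and 6.88 CPM in M92KO muscle. The per-length ratio of Slc25a25 to Slc25a23 was 4.12, 6.73 and 13.6 in WT and 2.05, 2.89 and 3.37 in M92KO muscle, so the groups of the ratio did not overlap (exact permutation p = 0.1, 0.267 after adjustment over 8 ratios). Slc25a23 to Slc25a24 stood at 3.07 ± 0.449 in WT and 3.91 ± 0.541 in M92KO muscle, with the same p-values.

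**Figure D3:**
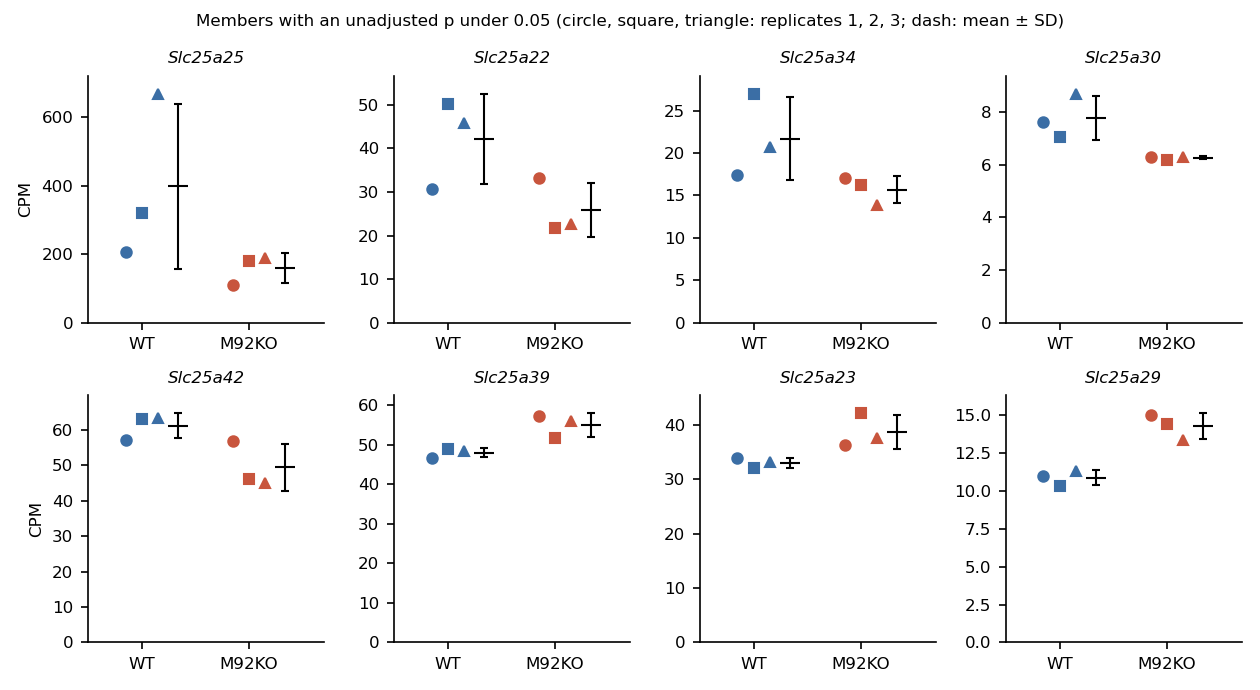
CPM of the 8 members that passed an unadjusted p-value of 0.05, by genotype, with circle, square and triangle for replicates 1, 2 and 3 and a dash with bars for mean ± SD (n = 3). Slc25a25 is at 399 ± 241 CPM in WT and at 160 ± 43.2 CPM in M92KO muscle, and Slc25a22 is the member of the 8 whose groups overlap.

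Slc25a25 has 3 annotated start sites in RefSeq. The promoter of the start nearest to the 3′ end of the gene is shown because it holds the full cAMP response element, the letters TGACGTCA, in capitals. It covers 250 bases before and 50 after the start, chr2:32424017-32424316 on the minus strand of GRCm38.p6.
Slc25a25 promoter: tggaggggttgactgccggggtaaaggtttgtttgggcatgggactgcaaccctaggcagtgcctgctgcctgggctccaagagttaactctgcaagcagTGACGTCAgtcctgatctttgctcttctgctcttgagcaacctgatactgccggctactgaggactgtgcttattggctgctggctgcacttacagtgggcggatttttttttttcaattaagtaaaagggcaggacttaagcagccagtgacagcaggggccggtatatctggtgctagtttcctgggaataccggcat

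The element, which reads the same on both strands, starts at base −150 from that start. It was found in 1.79% of 32851 promoters of this length, in 3.15% of 12493 genes tested, and in 2 of 31 members with a promoter in the table. The other member was Slc25a36, which did not pass (log2 fold change 0.06, SE 0.07). Other motifs were searched on both strands, without overlap among the matches in members. The E-box CACGTG was in 6 of 31 members, none of which passed, and in 11.01% of genes, and the NRF1 element, GCGCA and GCGC with any base between them, was in 1 member, Slc25a3, and in 9.85% of genes. The ERR element TCAAGGTCA (0.352% of genes), the PPAR element, AGGTCA repeated after 1 base of any kind (0.04%), and the glucocorticoid response element, AGAACA and TGTTCT with any 3 bases between them (0.008%), were in none of the 31. A match of letters is no evidence of binding, and the start site in use was not resolved by gene counts. Exons of Slc25a25 share 379 bases with Naif1 on the opposite strand, and since strandedness of the counting is not given in the sources used here, reads of both genes cannot be told apart there.

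The genes induced by muscle activity had a median log2 fold change of −1.22. Of these 6, 4 passed the unadjusted threshold as lower (against 6.92% of all genes tested) and none as higher (against 5.47%). These were the immediate early genes Nr4a3 (−1.45), Junb (−1.67) and Nr4a1 (−0.88) and the clock gene Per1 (−0.84), none of which passed after adjustment in the edgeR fit of genotype alone. With DESeq2, Nr4a3 was the only gene of these 4 to pass the unadjusted threshold, and with the study's supplementary steps none did. In the 6 fits without 1 mouse Nr4a3 was called in 6, Nr4a1 in 3 and Junb and Per1 in 2, and without WT replicate 3 the log2 fold changes were −1.13 for Nr4a3, −0.37 for Nr4a1, −0.43 for Junb and −0.54 for Per1. Their list summed to 381, 756 and 1439 CPM in WT replicates 1, 2 and 3 and to 401, 436 and 469 CPM in M92KO replicates 1, 2 and 3. Slc25a25 ranked the mice of each genotype in the same order as this sum. Both were highest in WT replicate 3, and their part in the difference of Slc25a25 was not tested.

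Among amino acid carriers, Slc25a22, a glutamate carrier (chr7:141429744-141437892, minus), was at 30.6, 50.3 and 45.7 CPM in WT and at 33.1, 21.8 and 22.7 CPM in M92KO muscle. The groups overlapped, because M92KO replicate 1 lay just above WT replicate 1. The means were 42.2 ± 10.3 and 25.9 ± 6.27 CPM, with a log2 fold change of −0.70 (SE 0.21, adjusted p = 0.256 in edgeR). Slc25a18, its paralogue, was near the floor at 0.356 to 0.621 CPM in WT and 0.275 to 0.518 CPM in M92KO muscle (log2 fold change −0.43, SE 0.39). The per-length ratio of Slc25a22 to Slc25a18 was 29.1 ± 10.6 in WT and 24.0 ± 3.19 in M92KO muscle (exact permutation p = 0.6).

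Slc25a29, a carrier of basic amino acids, gave the smallest p of the family. It was at 10.97, 10.4 and 11.4 CPM in WT and at 15.1, 14.4 and 13.4 CPM in M92KO muscle, with every M92KO mouse above every WT mouse. The means were 10.9 ± 0.505 and 14.3 ± 0.846 CPM, with a log2 fold change of 0.39 (SE 0.09, adjusted p = 0.186 in edgeR). It kept an unadjusted p-value under 0.05 in each of 6 fits that left out 1 mouse, with log2 fold changes of 0.35 to 0.44. Slc25a29 (chr12:108825873-108835883, minus) starts head to head with Slc25a47 (chr12:108836046-108856815, plus), whose cargo is not settled. Slc25a47 was at 4.96 ± 0.554 CPM in WT and 5.02 ± 0.867 CPM in M92KO muscle (log2 fold change 0.02, SE 0.16). The other basic amino acid carriers, Slc25a15 and Slc25a2, had log2 fold changes of 0.01 (SE 0.11) and 0.09 (SE 0.29).

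Slc25a39, the glutathione carrier (chr11:102402985-102407946, minus), was at 46.8, 48.9 and 48.4 CPM in WT and at 57.3, 51.7 and 56.1 CPM in M92KO muscle, without overlap. Its log2 fold change was 0.20 (SE 0.07, adjusted p = 0.313 in edgeR), and it did not pass without WT replicate 1 (0.18). Its paralogue Slc25a40 was also higher in every M92KO mouse, at 7.79, 8.38 and 8.17 CPM against 8.43, 9.62 and 9.17 CPM, and did not pass in edgeR (log2 fold change 0.16, SE 0.10). Their per-length ratio was 18.0 ± 0.271 in WT and 18.6 ± 2.15 in M92KO muscle (exact permutation p = 0.7). Slc25a38, the glycine carrier, and Slc25a44, the carrier of branched-chain amino acids, had log2 fold changes of −0.08 and −0.03 and did not pass.

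Among carriers of cofactors, 1 of 7 members was lower (against 6.92% of all genes tested) and none was higher (against 5.47%). Slc25a42, the coenzyme A carrier (chr8:70184340-70212305, minus), was at 57.2, 63.2 and 63.2 CPM in WT and at 56.99, 46.3 and 45.0 CPM in M92KO muscle. M92KO replicate 1 lay just under WT replicate 1, and the other M92KO mice were well below all WT mice. The log2 fold change was −0.31 (SE 0.10, adjusted p = 0.284 in edgeR), and without M92KO replicate 1 it was −0.42 (adjusted p = 0.0248). It did not pass without M92KO replicate 2 (−0.26) or M92KO replicate 3 (−0.25). Others of the class, Slc25a26 for S-adenosylmethionine and Slc25a51 for NAD, had log2 fold changes of −0.03 (SE 0.08) and −0.04 (SE 0.07).

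Slc25a30, a relative of the uncoupling proteins also called KMCP1 (chr14:75760117-75787037, minus), was at 7.61, 7.04 and 8.69 CPM in WT and at 6.30, 6.20 and 6.30 CPM in M92KO muscle. Every M92KO mouse was lower, with a log2 fold change of −0.31 (SE 0.12, adjusted p = 0.347 in edgeR). It passed in 3 of 6 fits that left out 1 mouse, and did not pass without WT replicate 1 (−0.33), WT replicate 3 (−0.23) or M92KO replicate 2 (−0.31). Its relatives Slc25a14 and Slc25a27 had log2 fold changes of 0.06 (SE 0.16) and −0.13 (SE 0.15). Slc25a27, also called UCP4, was at 52.6, 62.0 and 56.3 CPM in WT and at 66.4, 47.2 and 42.6 CPM in M92KO muscle, and without M92KO replicate 1, the highest of all, its log2 fold change was −0.34 and passed the unadjusted threshold.

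Slc25a34, whose cargo is not settled (chr4:141618824-141623821, minus), was at 17.4, 27.0 and 20.7 CPM in WT and at 17.0, 16.2 and 13.9 CPM in M92KO muscle. The highest M92KO mouse was just under the lowest WT mouse. Its log2 fold change was −0.46 (SE 0.16, adjusted p = 0.312 in edgeR), and it did not pass without WT replicate 2 (−0.28) or M92KO replicate 3 (−0.38). None of the other 5 tested members without a settled cargo passed.

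Iron and pyrimidine carriers showed no call. Slc25a37 (mitoferrin 1) and Slc25a28 (mitoferrin 2) had log2 fold changes of −0.05 and −0.03, and their per-length ratio, Slc25a28 to Slc25a37, was 1.34 ± 0.0502 in WT and 1.36 ± 0.0698 in M92KO muscle (exact permutation p = 0.7). Slc25a33 and Slc25a36 had log2 fold changes of −0.02 and 0.06, with a Slc25a36 to Slc25a33 ratio of 0.750 ± 0.119 and 0.785 ± 0.0463 (exact permutation p = 0.8). Slc25a1, the citrate carrier, and Slc25a10, the dicarboxylate carrier, had log2 fold changes of 0.04 (SE 0.16) and 0.18 (SE 0.13), and Slc25a10 was higher in every M92KO mouse.

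Carrier homologues under other names were read beside the family, with a median log2 fold change of −0.17. Of the 4 tested, 1 was lower (against 6.92% of all genes tested) and none higher (against 5.47%). This was Ucp3, the muscle uncoupling protein, at 201, 417 and 384 CPM in WT and 223, 146 and 133 CPM in M92KO muscle. As in Slc25a22, M92KO replicate 1 lay above WT replicate 1, and the log2 fold change was −0.999 (SE 0.28, adjusted p = 0.237 in edgeR). Ucp1, which defines brown fat, was at or under the floor in every library. Of 6 genes that fasting induces in muscle, 4 were lower (against 6.92% of all genes) and none higher (against 5.47%), with a median of −0.97. Among the 4 were Pdk4 (−1.22), Angptl4 (−1.27) and Ucp3 (−0.999), and none passed after adjustment in edgeR. Angptl4 passed the unadjusted threshold neither with DESeq2 nor with the supplementary steps, and in 2 of 6 fits without 1 mouse, with log2 fold changes from −2.11 without M92KO replicate 1 to −0.81 without WT replicate 2. Ucp3 did not pass with the supplementary steps. Their list summed to 1771, 2931 and 2344 CPM in WT and to 1702, 1266 and 1052 CPM in M92KO muscle. Slc25a22 and Slc25a34 were highest in WT replicate 2, like this sum, and its part in their differences was not tested.

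**Figure D4:**
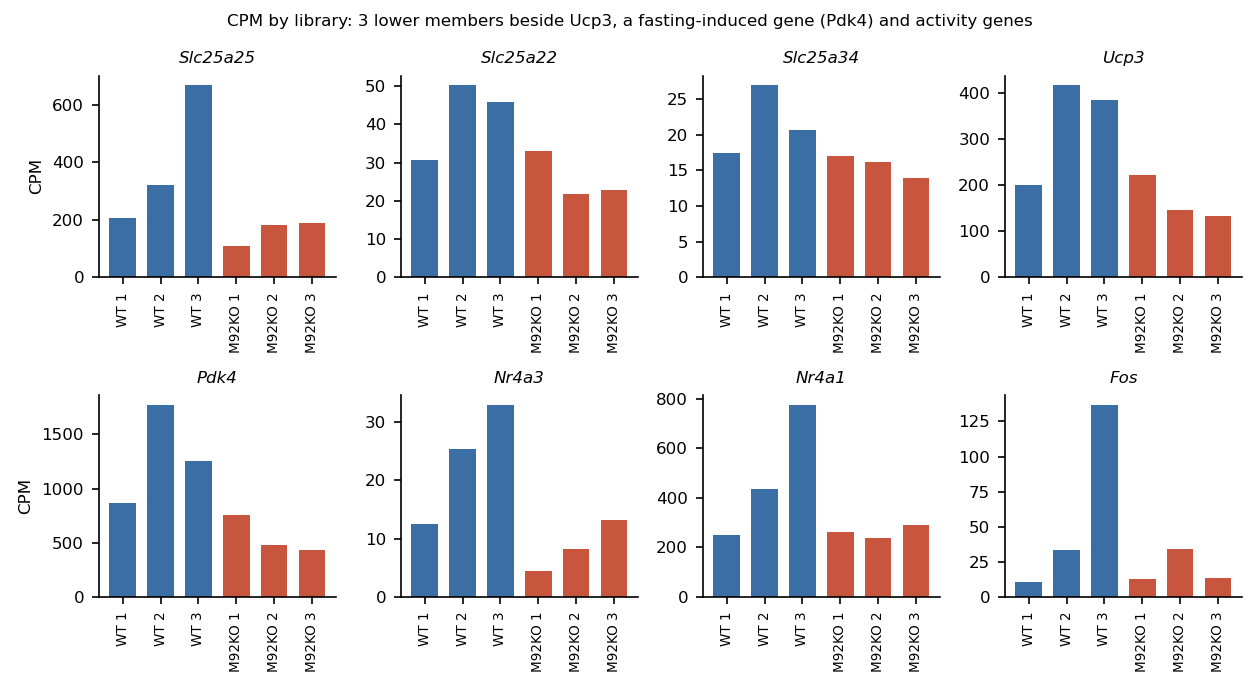
CPM by library (blue WT, red M92KO, bars from 0) of Slc25a25, Slc25a22 and Slc25a34 beside Ucp3, Pdk4 and the activity genes Nr4a3, Nr4a1 and Fos. Slc25a25 and the 3 activity genes are highest in WT replicate 3, and Slc25a22, Slc25a34, Ucp3 and Pdk4 are highest in WT replicate 2.

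The list of import genes, with members of both the outer and the inner membrane, had a median log2 fold change of 0.08. Its summed level was 610 to 624 CPM in WT and 637 to 665 CPM in M92KO muscle, without overlap. In this list 11 genes had a log2 fold change above 0 and 2 had one below. Of its 13 genes, 1 was higher (against 5.47% of all genes tested) and none lower (against 6.92%). The higher gene was Tomm20, a receptor of the outer membrane, at 0.29 (adjusted p = 0.208 in edgeR and 0.0498 in DESeq2). The 17 other transport genes of the inner membrane, such as the pyruvate carrier and the calcium uniporter, had a median of −0.02. Among them, 1 was lower and none higher, against the same shares of all genes. This was Sfxn5, a sideroflexin, at −0.73 (adjusted p = 0.214 in edgeR and 0.0107 in DESeq2). None of the 3 outer membrane pores (Vdac1 to Vdac3, median 0.05) and none of 12 genes of mitochondrial content, such as citrate synthase and respiratory chain subunits, passed. The 12 had a median of −0.03 and summed levels of 14359 to 15401 CPM in WT and 13314 to 15295 CPM in M92KO muscle.

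Markers of other cells in the muscle gave the following levels, and their part in the differences of the carriers was not tested. Over all genes tested, 6.92% were lower and 5.47% higher at the unadjusted p-value of 0.05 in edgeR. Of 6 fibroblast markers, 3 were lower in edgeR (Col1a1, Col1a2 and Dcn), and of these 3 only Dcn also passed with the supplementary steps. The 6 had summed levels of 1708 to 2268 CPM in WT and 1151 to 1596 CPM in M92KO muscle. Of 4 markers each, 1 was lower for endothelium (Tie1, sums 763 to 827 and 669 to 833 CPM), 2 for Schwann cells (among them Mbp, 69.4 to 103 and 70.1 to 75.3 CPM) and 1 for leukocytes (Ptprc, 25.3 to 27.0 and 17.9 to 25.9 CPM). Tie1 also passed with the supplementary steps, and Mbp and Ptprc did not. In the 6 fits without 1 mouse, Col1a2, Dcn and Tie1 were called in 6, Col1a1 in 4, Ptprc in 3 and Mbp in 2. None of 5 red cell genes (sums 74.0 to 222 and 143 to 336 CPM) passed. None of the 5 fat cell genes tested of 6 (312 to 363 and 311 to 390 CPM) passed either. All 5 tested in each of these 2 lists had log2 fold changes above 0, with medians of 0.66 for red cells and 0.62 for fat cells. No marker of the lists in this paragraph passed the unadjusted p-value of 0.05 as higher.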

How the data were processed

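Gas muscle RNA of 3 WT and 3 M92KO mice was sequenced, with 1 library per mouse. The authors deposited raw counts per gene symbol, not normalized. The labels name a SMARTer mRNA kit, and the submitters' processing notes name GRCm38 and mm10. The aligner, counter, annotation and strandedness are not given in the sources used here. WT libraries summed to 44931338, 38246649 and 48209846 and M92KO libraries to 34675374, 33160508 and 37019640. No source used here says whether mice shared litters or batches. The p-values set the difference between genotypes against the spread between these samples within groups. A difference of litter or batch between the groups could not be told apart from genotype.

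The main test used edgeR 4.0.16 under R 4.3.3 (filterByExpr with a minimum count of 10 and a minimum total of 15, TMM, glmQLFit and glmQLFTest, no covariate). The call was an unadjusted p-value of 0.05, with Benjamini-Hochberg adjustment over all genes beside it. Single values were compared with two-sided exact permutation tests on log2(CPM + 0.5), or on the log2 of the ratio. DESeq2 1.42.0, other filters, the study's supplementary steps (quantile normalization, log2, limma 3.58.1), a replicate block, fits without each mouse and offsets for GC content and length (lowess span 0.3, chosen after seeing the data) were alternatives. Both edgeR and DESeq2 were also run on simulated data, in which 197 changed genes (log2 fold change 1, up or down) were tested. At an adjusted p-value of 0.05, edgeR found 143 of them with 13 false calls, and DESeq2 found 153 with 31 false calls. The adjusted calls of DESeq2 given above carry the limit of those false calls. The simulation was 1 draw, with noise at the dispersions that edgeR estimated. Its changes were larger than those of Slc25a22 (−0.70) and Slc25a29 (0.39). Neither the share found nor the share of false calls therefore carries over to these members. Positions, exon lengths and 3′-UTRs are from GENCODE M21 (47 of 47 members matched, 46 with a complete 3′-UTR), and microRNAs and promoters from RefSeq tables of GRCm38.p6. Exons of 14 members overlap another gene, mostly on the opposite strand.

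The members and all gene lists (carrier homologues, import machinery, other inner membrane transport, outer membrane pores, shuttle and carnitine enzymes, mitochondrial content, fasting-induced and activity genes, and markers of fibres and other cells) were chosen with earlier results of these data known. Named genes were members past the unadjusted p-value of 0.05, the 6 highest per length, paralogue sets, members at or under 3 counts, and list genes past that p-value. Others were named to complete a cargo class or describe a motif, after their values were seen. Values of some genes by name are not reported here, though sums and counts over their lists include them.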

Additional observations from a re-analysis of the deposited data

How the results depend on the processing

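The count of 8 members past an unadjusted p-value of 0.05 (3 higher, 5 lower) was the same with DESeq2 size factors, the DESeq2 Wald test, no filter, a minimum of 10 counts in every library, the replicate block, and GC and length offsets, the last of these chosen after seeing the data, and in each of these fits they were the same 8 members. The study's supplementary steps called 7 members (5 higher, 2 lower), of which 4 were among the 8 (Slc25a23, Slc25a29, Slc25a30 and Slc25a39). With those steps 1244 genes were higher and 1043 lower (54.4% higher), against 863 and 1092 (44.1% higher) in edgeR, and the cause was not tested. Leaving out 1 mouse at a time gave 5 to 10 members called, against 1221 to 2984 genes called (7.65 to 18.6%). The median log2 fold change of members was −0.0303 to 0.0388, and 10 to 20 members were without overlap. With 2 mice in a group, values separate more easily than with 3. The share of all genes without overlap was not counted in these fits. Those member counts are therefore not set against the count with all mice. Without M92KO replicate 2 the count of members called was 5. Without WT replicate 2 or 3 the count of genes was 1221 or 1272. Without M92KO replicate 1 the count of genes was 2984 (18.6%), with 10 members called. Slc25a22, Slc25a25 and Slc25a29 were called in 6 of 6 of these fits, Slc25a39 in 5, Slc25a23, Slc25a34 and Slc25a42 in 4 and Slc25a30 in 3. Whether replicate numbers pair the mice is not settled here. Deviations of same-numbered mice correlated at 0.0806, 0.0376 and 0.0151, and WT replicate 3 correlated better with M92KO replicate 2 (0.0365). With 3 weak correlations, pairing could not be decided. A replicate block gave 1691 genes and 8 members called. In the fit with that block, Nr4a3 passed after adjustment (adjusted p = 0.0160) and Junb lost its unadjusted call. No named gene called in either fit changed direction in any alternative run. With 3 mice a group, no exact test could go below 0.1, and members near the floor of 3 counts carry little information.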
